A study of Mus musculus with 4 samples.

Results

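Mimetic medullary thymic epithelial cells (mTECs) were described here through 32 marker genes, out of 23366 gene symbols in the deposited count table. The genes were chosen by name as known markers of 7 lineages. There were 8 markers for tuft cells, 3 for microfold cells, 6 for neuroendocrine cells, 3 for ciliated cells, 6 for muscle, 2 for ionocytes and 4 for enterocyte-like and secretory cells. Of the 32, 31 were measured. The tuft marker Sh2d6 had no entry under that symbol among the deposited counts, so only its promoter was examined here.

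Mimetic cells are mTECs that take on the transcription programme of a cell type from outside the thymus, each under the transcription factor that runs the programme in its home tissue. Tuft cells sense chemicals and release cytokines and lipid mediators, microfold cells take up antigen from mucosal surfaces, and ionocytes regulate ion transport. Within the medulla they are rare, and they display to developing T cells the proteins of muscle, gut, airway and endocrine tissue.

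The study asked whether transcripts of mTECs differ between the sexes. RNA was sequenced from mTECs of untreated wild-type C57BL/6 mice aged 6 to 8 weeks, sorted as cells that excluded propidium iodide, lacked CD45, carried MHCII and were low in Ly51. Each pool held cells of 10 mice, and there were 2 female and 2 male pools. The 2 female pools had 3508921 (pool 1) and 1976272 (pool 2) reads on genes, and the 2 male pools had 7103627 (pool 1) and 3344471 (pool 2). Below, 4 values in a row follow this order.

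A marker counted as detected in a pool when it had more than 3 reads, which is the limit that a count of 0 allows. Expression per pool is given as normalized CPM, which is the count in proportion to the pool's reads on genes, corrected for library composition with edgeR's TMM factors of 1.05, 1.03, 1.18 and 0.78. The limit of 3 reads equals 0.815, 1.48, 0.358 and 1.16 normalized CPM in the 4 pools, and it covers counting error only. Because the mRNA came from pools of cells, fewer cells of a lineage and less RNA per cell cannot be told apart.

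The labelled cell type was checked against its defining markers. Aire, the regulator of tissue antigens in mTECs, had 71, 64, 165 and 75 reads, and the epithelial adhesion gene Epcam had 136, 86, 368 and 134 reads. All 4 pools thus held mTEC transcripts, although the chemokine gene Ccl21a had 0 reads in each. Transcripts of other cells were also present. Ptprc, which encodes the CD45 that the sort selected against, had 1030, 363, 2546 and 569 reads. Divided by exonic length, as normalized CPM per kilobase, the mean level was 42.2 for Ptprc, 21.5 for Epcam, 6.51 for Aire and 1250 for the B cell receptor gene Cd79a. Over the 9 epithelial genes of the list it ranged widely, and Spint2 (185), Krt8 (49.3) and Krt18 (42.3) were at or above Ptprc.

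Whole marker lists were summed as normalized CPM. The 8 B cell genes, led by Cd79a, summed to 4490, 2930, 3680 and 2450, and the 10 dendritic cell and macrophage genes, led by the lysozyme gene Lyz2, to 2370, 3670, 1870 and 4820. The 9 epithelial genes, led by the protease inhibitor Spint2, summed to 376, 650, 418 and 618. The 6 cortical epithelial genes, led by the endocytic receptor Ly75, stood at 81.0, 79.2, 68.1 and 102. The B cell sum was thus higher in pool 1 of each sex. The dendritic cell and macrophage sum was higher in pool 2 of each sex, and without Lyz2 it was 1210, 1270, 1030 and 1490. The part of these other cells in the marker values below was not tested, except where values are given.

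Over all lineages, 12, 13, 17 and 13 of the 31 measured markers were detected in the 4 pools, and 7 were detected in every pool. Those 7 were Ptgs1, Gp2, Tnfaip2, Chga, Insm1, Tppp3 and Chrna1. A further 14 were detected in 1 to 3 pools and 10 in none, and Neurod1 and Hnf4a had no read in any pool. For comparison, 47.2% of all gene symbols in the table were detected in all 4 pools. The most markers were found in male pool 1, which also had the most reads. When the limit was raised in proportion to each pool's depth, the numbers became 9, 13, 7 and 10 (the reads themselves were not thinned). Male pool 1 then had the fewest, but counting error lifts a marker over a low limit more easily than over a high one. This order therefore does not rank the pools.

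**Figure D1:**
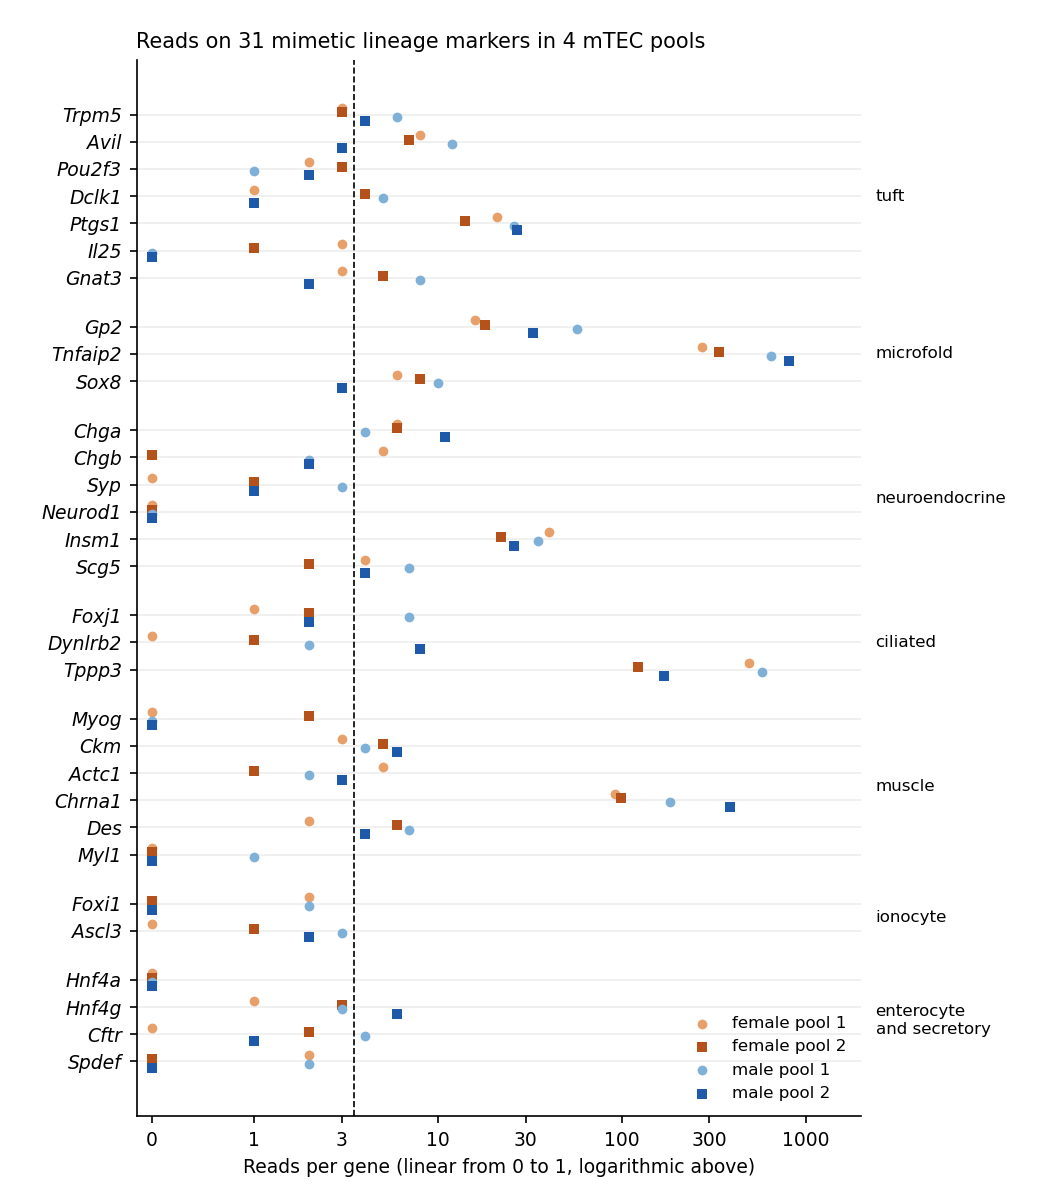
Reads per gene for the 31 measured markers (vertical axis, by lineage) in the 4 pools, on a horizontal axis that is linear from 0 to 1 and logarithmic above, with the dashed line just above 3 reads. Tnfaip2, Tppp3 and Chrna1 lie far to the right of the other markers in every pool, and most markers lie near or left of the line.

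By lineage, detection in every pool was reached by 2 of 3 microfold markers, 2 of 6 neuroendocrine markers, 1 of 3 ciliated markers, 1 of 6 muscle markers and 1 of 7 measured tuft markers. Neither of the 2 ionocyte markers and none of the 4 enterocyte-like and secretory markers reached it. Reads were concentrated on few genes. Of 4815 reads on all markers, 2223 fell on microfold, 1389 on ciliated and 813 on muscle markers. Ionocyte markers together had 10 reads.

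**Figure D2:**
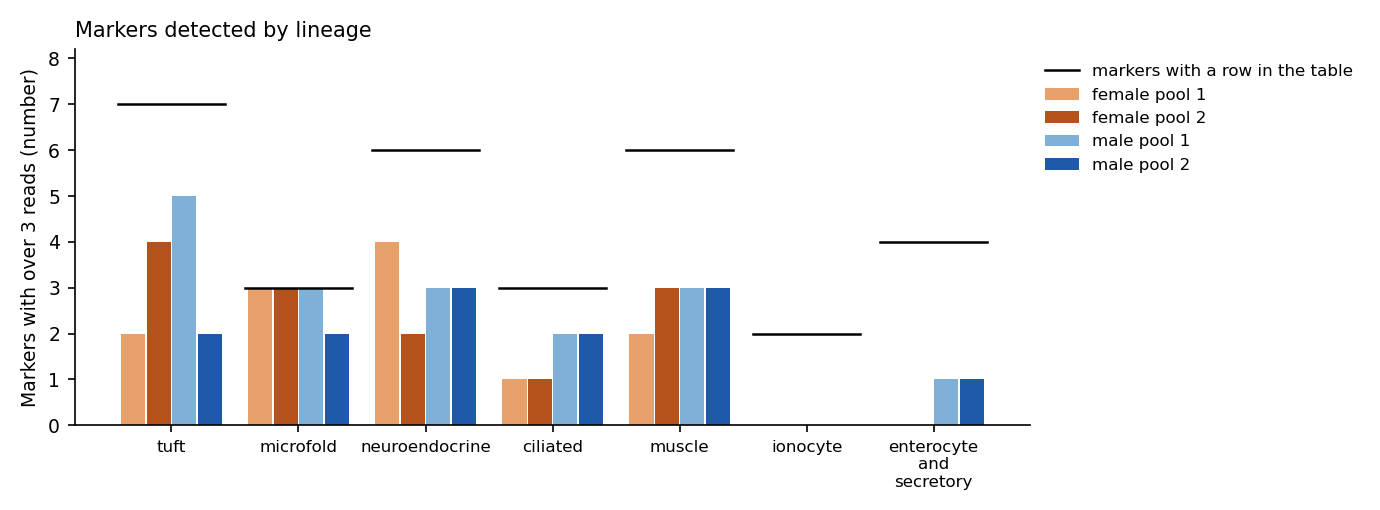
Number of markers with more than 3 reads (vertical axis) in each lineage for the 4 pools, with black lines at the number of markers measured. Microfold markers reached the line in 3 pools, and ionocyte markers had no bar in any pool.

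Levels of single markers were ranked per length, as normalized CPM per kilobase of exon. The highest mean was that of Tppp3 at 80.5, followed by Tnfaip2 at 31.7, Chrna1 at 14.0, Gp2 at 4.14, Insm1 at 2.90, Ptgs1 at 1.68 and Chga at 1.24 among the 7 markers found in every pool. Over the 4 pools Tppp3 ranged from 59.0 to 131, Tnfaip2 from 14.9 to 62.8 and Chrna1 from 4.99 to 34.1. The ranges of neighbours in this order overlapped, yet within each single pool Tppp3 was above Tnfaip2 and Tnfaip2 above Chrna1. Every other measured marker had a mean below 2.0 per kilobase, and the highest of them, Dynlrb2 at 1.92, rested on male pool 2.

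Muscle markers in the thymus have a long history, since the acetylcholine receptor is the autoantigen of myasthenia gravis. Chrna1 encodes the α subunit of the muscle form of this receptor and lies at chr2:73401272-73418395 on the minus strand of NCBIM37, the assembly also called mm9, with 9 exon blocks. It had 92, 99, 183 and 388 reads, or 25.0, 49.0, 21.9 and 149 normalized CPM. The level was highest in male pool 2, and both second pools were above both first pools. Without regard to length, Chrna1 made up 93.8% of the summed normalized CPM of the 6 muscle markers.

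The other muscle markers were near the limit of detection. Myog, a transcription factor of muscle differentiation, had 2 reads in female pool 2 and none elsewhere. Ckm, the muscle creatine kinase, had 3, 5, 4 and 6 reads, and Des, which encodes the intermediate filament desmin, had 2, 6, 7 and 4. Actc1, the cardiac α actin, had 5, 1, 2 and 3 reads. Myl1, a myosin light chain, had 1 read in all. So of the 6 muscle markers only the receptor subunit gene was above a handful of reads. Exons of Ckm and Des overlap genes on the opposite strand, and Actc1 is a close paralog of Acta1, so their few reads are uncertain in origin.

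Further muscle genes were counted from a list of 18. Of these, 5 were detected in every pool and 4 had no read, namely the myogenic factors Myod1, Myf5 and Myf6 and the receptor kinase Musk. By normalized CPM, without regard to length, the first 3 were Ttn (titin), with 58, 27, 94 and 37 reads, Acta1 (skeletal α actin), with 46, 25, 57 and 35, and Mylpf (fast myosin light chain), with 13, 22, 51 and 46. Per kilobase, Mylpf (mean 10.8) and Acta1 (7.81) were above the very long Ttn (0.117). Of the receptor's other subunits, δ (Chrnd) had 0, 0, 2 and 1 reads and γ (Chrng) had 2, 1, 2 and 0. They were singled out after their values were seen, and the remaining subunits were not on the list. Rapsn, which clusters the receptor, had 10, 8, 17 and 16. The 8 smooth muscle and pericyte genes, led by Acta2, summed to 10.1, 13.4, 11.6 and 14.2 normalized CPM, and the 6 muscle markers to 27.7, 55.9, 23.5 and 154.

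Because Chrna1 stood apart from the other muscle markers, the promoters of this lineage are shown. Myogenic factors bind E-boxes, and the form searched was CAGCTG, which reads the same on both strands. In windows from 250 bases before to 50 after each RefSeq start (GRCm38.p6), this form occurred in 16.3% of 32851 promoters. It occurred in 4 of the 6 muscle markers, all of which had a window, namely Chrna1, Ckm, Des and Myl1, and not in Actc1 or Myog, and among the other markers in Chga, Chgb and Hnf4a. In the following stretches, all upstream of the RefSeq start and placed on NCBIM37 by an exact match, the E-boxes are in capitals. The Myl1 stretch lies inside the gene as annotated by GENCODE, which begins upstream of that start, at 66991978.
Chrna1, chr2:73418396-73418507, minus strand: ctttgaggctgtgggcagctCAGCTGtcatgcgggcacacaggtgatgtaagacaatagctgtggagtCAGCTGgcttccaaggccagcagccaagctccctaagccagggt
Ckm, chr7:19996193-19996219, plus strand: cCAGCTGtcccccgccagctagactca
Des, chr1:75356811-75356856, plus strand: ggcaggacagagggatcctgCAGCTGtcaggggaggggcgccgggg
Myl1, chr1:66991829-66991874, minus strand: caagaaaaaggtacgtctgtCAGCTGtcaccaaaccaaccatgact
Chrna1 held 2 copies, whose first bases lay at −92 and −44 from the start, and the others held 1 each. The 4 genes with the motif included both the most read muscle marker and Myl1 with 1 read, so the motif did not separate read from unread genes.

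Other motifs were searched on both strands. The octamer ATGCAAAT (POU factors, such as Pou2f3), the forkhead motif GTAAACA (such as Foxj1 and Foxi1) and CAAAGTCCA (HNF4 factors) were in no promoter of the 26 markers with a window. They occurred in 1.74%, 3.65% and 0.475% of all promoters. GTTGCC, part of the X-box of RFX factors, occurred in 12.5% of promoters and in those of the markers Ckm, Dclk1, Dynlrb2, Hnf4a and Sh2d6. A match is a description of these letters only.

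Among the microfold markers most reads were on 1 gene. Tnfaip2, a gene induced by tumour necrosis factor that acts in membrane protrusions (chr12:112680680-112693229, plus strand), had 273, 340, 646 and 813 reads, or 74.2, 168, 77.2 and 313 normalized CPM. The 2 first pools were alike and both second pools were higher. Gp2, the microfold receptor for bacteria at the cell surface (chr7:126586057-126602786, minus strand), had 16, 18, 57 and 33 reads, or 4.35, 8.91, 6.81 and 12.7 normalized CPM. Again both second pools were above both first pools, although in females the difference was within counting error. Sox8, a transcription factor of microfold maturation, had 6, 8, 10 and 3 reads and was the only one of the 3 to miss detection in a pool.

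Of the 3 microfold markers, Tnfaip2 made up 94.0% of the summed normalized CPM, without regard to length, and is also expressed in myeloid blood cells. Of 8 further microfold genes, 6 are also expressed in blood cells of some kind, among them the 3 with the highest normalized CPM, Marcksl1 (an actin regulator), Anxa5 (a membrane-binding annexin) and Spib (a transcription factor of microfold cells and B cells). These had 2492, 1354, 3727 and 1015 reads, 1395, 962, 2866 and 1123 reads, and 438, 177, 1026 and 162 reads, respectively. All 8 were detected in every pool. Spib had a log2 fold change of -0.69 between second and first pools, with an adjusted p of 0.15 (edgeR), and was not called.

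Neuroendocrine markers were led by Insm1, a zinc finger transcription factor of endocrine differentiation with 1 exon at chr2:146047657-146050752, plus strand. It had 40, 22, 35 and 26 reads, or 10.9, 10.9, 4.18 and 10.0 normalized CPM, and male pool 1 was the low one. Chga, chromogranin A of secretory granules (chr12:103793179-103803237, plus strand), had 6, 6, 4 and 11 reads, or 1.63, 2.97, 0.478 and 4.24 normalized CPM. It was thus detected in all pools, but only just in male pool 1.

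Granule and vesicle genes beyond Chga were scarce. Scg5, a chaperone of a prohormone convertase, had 4, 2, 7 and 4 reads, Chgb (chromogranin B) had 5, 0, 2 and 2, and the synaptic vesicle gene Syp had 0, 1, 3 and 1. The transcription factor Neurod1 was at 0 in each pool. Of 15 further neuroendocrine genes, 2 were detected in every pool and 3 had no read (Nkx2-2, Scg3 and Rimbp2). Among those with the highest normalized CPM were the hormone gene Cck, with 6, 6, 7 and 13 reads, and the ghrelin gene Ghrl, with 1, 3, 3 and 7. Per kilobase, the mean normalized CPM was 3.08 for Cck, beside 2.90 for Insm1 and 1.24 for Chga.

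Among ciliated markers nearly all reads were on Tppp3, which encodes a protein that promotes tubulin polymerization (chr8:107991393-107995322, minus strand). It had 494, 122, 580 and 170 reads, or 134, 60.4, 69.3 and 65.5 normalized CPM. Female pool 1 was high and the other 3 pools were close to each other. Without regard to length, Tppp3 made up 98.0% of the summed normalized CPM of the 3 markers. Foxj1, the regulator of motile cilia, had 1, 2, 7 and 2 reads, and Dynlrb2, a dynein light chain, had 0, 1, 2 and 8.

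Other ciliated genes had few reads. Of 16 further ciliated genes, 2 were detected in every pool and 9 in none. The highest normalized CPM was that of the transcription factors Rfx3, with 26, 7, 72 and 11 reads, and Rfx2, with 12, 9, 27 and 7, and Ccno, a regulator of centriole amplification, with 4, 3, 19 and 11. Per kilobase, their mean normalized CPM was 0.529, 1.02 and 1.21, beside 80.5 for Tppp3. The radial spoke gene Rsph1, singled out after its values were seen, had 2, 4, 5 and 4 reads and a mean of 1.0 per kilobase. Fam183b, singled out likewise, had the highest mean of the 15 with a length, at 2.34, on 0, 3, 3 and 9 reads.

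Tuft markers were spread thinly over several genes. Ptgs1, the cyclooxygenase that begins prostaglandin synthesis (chr2:36085946-36107792, plus strand), had 21, 14, 26 and 27 reads, or 5.71, 6.93, 3.11 and 10.4 normalized CPM, and it is also expressed in myeloid cells. Avil, an actin-binding protein of the tuft, had 8, 7, 12 and 3 reads. Gnat3, the taste G protein α subunit gustducin, had 3, 5, 8 and 2, and Trpm5, the cation channel of taste signalling, had 3, 3, 6 and 4. These taste signalling genes were above the limit in 2 pools each. Exons of Trpm5 and Avil overlap genes on the opposite strand, so their reads are uncertain in origin.

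Other tuft markers had few reads as well. Dclk1, a kinase that marks tuft cells, had 1, 4, 5 and 1 reads. Pou2f3, the transcription factor that tuft cells require, had 2, 3, 1 and 2, and Il25, the cytokine of tuft cells, had 3, 1, 0 and 0. Pou2f3 and Il25 were at or under the limit in all pools. Of 18 further tuft genes, 12 were detected in every pool. But at least 9 of the 18, not counting Ltc4s, are also expressed in blood cells, among them the 3 with the highest normalized CPM. They included the signalling genes Plcg2, with 822, 476, 1510 and 876 reads, and Vav1, with 529, 353, 1342 and 290.

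Ionocyte and enterocyte markers were at the floor. Of the ionocyte factors, Foxi1 had 2, 0, 2 and 0 reads and Ascl3 had 0, 1, 3 and 2. Hnf4a, a nuclear receptor of gut and liver, had none. Its relative Hnf4g had 1, 3, 3 and 6 reads, the chloride channel Cftr 0, 2, 4 and 1, and Spdef, a factor of goblet cells, 2, 0, 2 and 0. These markers were not detectable at this depth in most pools, which does not show that they were absent.

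Other genes listed for these lineages were read more often, and the part of other cells in these reads was not tested. Of 8 further ionocyte genes 2 were detected in every pool, and Slc12a2, a sodium, potassium and chloride carrier, had 27, 5, 46 and 10 reads. The proton pump subunits Atp6v0d2 and Atp6v1c2 had 9, 4, 14 and 6 reads and 4, 3, 7 and 4 reads. Of 20 further enterocyte and secretory genes, 7 were detected in every pool. By normalized CPM, without regard to length, the first 3 were Fcgbp, a mucus protein, with 44, 78, 86 and 118 reads, Cdh17, an intestinal cadherin, with 135, 53, 216 and 37, and Tff3, a trefoil peptide of goblet cells, with 12, 13, 8 and 121. Per kilobase, Tff3 had a mean of 29.0, Cdh17 of 5.75 and Fcgbp of 2.53. Tff3 stood out in male pool 2. So enterocyte and secretory genes of this list were read while Hnf4a and the mucin gene Muc2 stayed at 0. Cdh17, at 36.7, 26.2, 25.8 and 14.2 normalized CPM, was higher in pool 1 of each sex, as the B cell sum was. Fcgbp and Tff3 were higher in pool 2 of each sex. The part of B cells in the reads of Cdh17 was not tested.

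The sexes were then compared with edgeR, by a quasi-likelihood test on the counts of the 10865 genes that passed a filter on low counts and with Benjamini-Hochberg adjustment at 0.05. The 7 markers found in every pool passed the filter, and the other 24 measured markers did not. None of the 7 passed the adjusted threshold between the sexes, and none had an unadjusted p under 0.05, against 0.0% and 0.442% of all genes tested. With DESeq2 none passed either. The adjusted p was 1 for each of the 7 markers. Their median log2 fold change of male over female was 0.02, beside 0.03 over all genes tested.

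The largest difference between the sexes was that of Chrna1, whose female pools averaged 37.0 ± 17.0 normalized CPM and whose male pools averaged 85.6 ± 90.2 (SD, n = 2). The log2 fold change was 1.21 with a standard error of 0.83. The male pools lay on either side of the female pools. Tnfaip2 averaged 121 ± 66.5 in female and 195 ± 167 in male pools, and its log2 fold change was 0.69 with a standard error of 0.71. Its ranges also overlapped. Insm1 averaged 10.9 ± 0.00971 in female and 7.10 ± 4.12 in male pools, and its log2 fold change was -0.68 with a standard error of 0.53. It was the single marker of the 7 whose male pools were both below the female pools, which held for 11.7% of all genes tested. The remaining log2 fold changes were 0.56 for Gp2, 0.02 for Ptgs1, -0.18 for Chga and -0.54 for Tppp3. Their standard errors were 0.56, 0.68, 1.09 and 0.44, and the ranges of the sexes overlapped in each. Chga averaged 2.30 ± 0.946 in female and 2.36 ± 2.66 in male pools, so its means did not share the sign of the fitted change.

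With 2 pools a sex, an exact permutation test cannot give a two-sided p below 0.333. Without male pool 1, the male group was male pool 2 alone, assumed to vary as the female pools did, and Chrna1 and Tnfaip2 then passed in edgeR's test with adjusted p of 7.89e-05 and 0.0219. In that fit 646 of 11292 genes, 5.72%, passed, and 9 markers were tested. No other omission of a pool gave a call among the markers, and without male pool 2 the log2 fold changes of Chrna1 and Tnfaip2 turned to -0.72 and -0.63. None of the 39 further lineage genes that passed the filter was past the adjusted threshold between the sexes either, and none had an unadjusted p under 0.05, although 7 of 40 passed without male pool 1 and 1, Tff3, passed with no filter. In the fit with no filter, 94 further lineage genes were tested, and 26 of 17866 genes passed. Thymocyte genes, led by Cd8a, summed to 270, 265, 757 and 378 normalized CPM. Fibroblast genes, led by Dcn, summed to 16.0, 52.9, 87.1 and 107. Both sums were higher in males, and their part in the sex comparison was not tested.

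**Figure D3:**
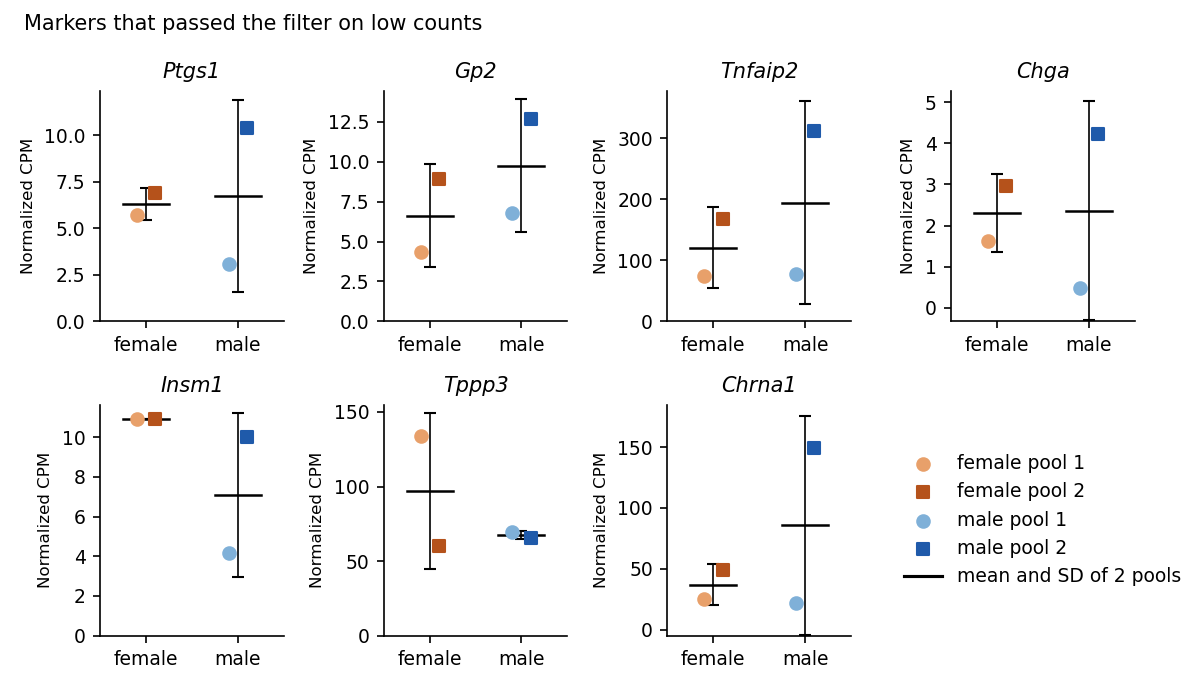
Normalized CPM (vertical axes, linear) of the 7 markers found in every pool, for 2 female and 2 male pools, with the mean and SD of each sex. The 2 pools of a sex are far apart for most markers, as for Chrna1 in males at 21.9 and 149. The second pools (squares) are above the first pools (circles) for 5 of the 7, against 26.5% of all genes tested. For Ptgs1, Gp2 and Chga the difference in females is within counting error. Chga is 1 of the 5 and passed the test's filter on low counts through its second pools alone. Without such genes the numbers are 4 of 6 and 25.2%.

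The pools of each sex are numbered 1 and 2, and the same test was applied to pool number, whose meaning the labels do not give. Across all genes tested, 202 were higher and 19 lower in the second pools, which are 1.86% and 0.175%. With scaling by library size only, the numbers were 376 and 388, and the median log2 fold change of all genes moved from -0.03 to -0.35. Among the 7 markers 1 was called, Tnfaip2, at a log2 fold change of 1.67 with a standard error of 0.32 and an adjusted p of 0.0456 (edgeR). The call was lost without female pool 1 (adjusted p of 0.104) and without male pool 1 (0.144), where the log2 fold changes of 1.63 and 1.68 had wider standard errors of 0.59 each. Each fit that leaves out a pool has 1 group of a single pool, assumed to vary as the other group does.

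Chrna1 had the larger fold, with a log2 fold change of 2.10, a standard error of 0.45 and an adjusted p of 0.0529 in edgeR's test. It passed when each of female pool 1, female pool 2 and male pool 1 was left out, in fits in which 3.57%, 22.9% and 1.54% of all genes passed. Without male pool 2 its log2 fold change was 1.07 and its adjusted p 0.0531. With all pools, its adjusted p ranged from 1.24e-09 to 0.0529 over the other normalizations, filters and tests and the fit with sex as a second term. The rise from the first to the second pool was 0.97 on the log2 scale in females and 2.77 in males. For Tnfaip2 it was 1.18 and 2.02. Both sexes thus moved the same way, and the difference between them was not tested.

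The other markers had smaller or noisier differences by pool number. Ptgs1, Gp2 and Chga had log2 fold changes of 1.06, 0.92 and 2.03, with standard errors of 0.45, 0.39 and 0.69 and adjusted p of 0.196, 0.199 and 0.128 (edgeR). Together with Tnfaip2 and Chrna1 they were the 5 of 7 markers with an unadjusted p under 0.05 in the higher direction, against 14.4% of all genes tested. However, Chga passed the filter, a CPM of 2.92 in at least 2 pools, through its second pools alone, so its direction was fixed by the filter. Without such genes, the numbers were 4 of 6 markers and 13.2% of 10676 genes. Insm1, at 0.55 with a standard error of 0.48, overlapped between first and second pools. Tppp3 fell by 0.68 on the log2 scale with a standard error of 0.32 and an adjusted p of 0.238, and so was not called.

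Without regard to the test, both second pools were above both first pools for 5 of 7 markers, against 26.5% of all genes tested, and without genes that passed through the second pools alone for 4 of 6, against 25.2%. Both were below for Tppp3 alone, against 29.0%. Of the 5, Tnfaip2 and Chrna1 rose beyond counting error in both sexes, and Ptgs1, Gp2 and Chga in males only. The median log2 fold change of the 7 markers was 1.06, beside -0.03 over all genes tested, and without genes that passed through the second pools alone 0.99 over 6, beside -0.04. Only 7 of the 31 measured markers entered these numbers, since the others were too low to test.

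**Figure D4:**
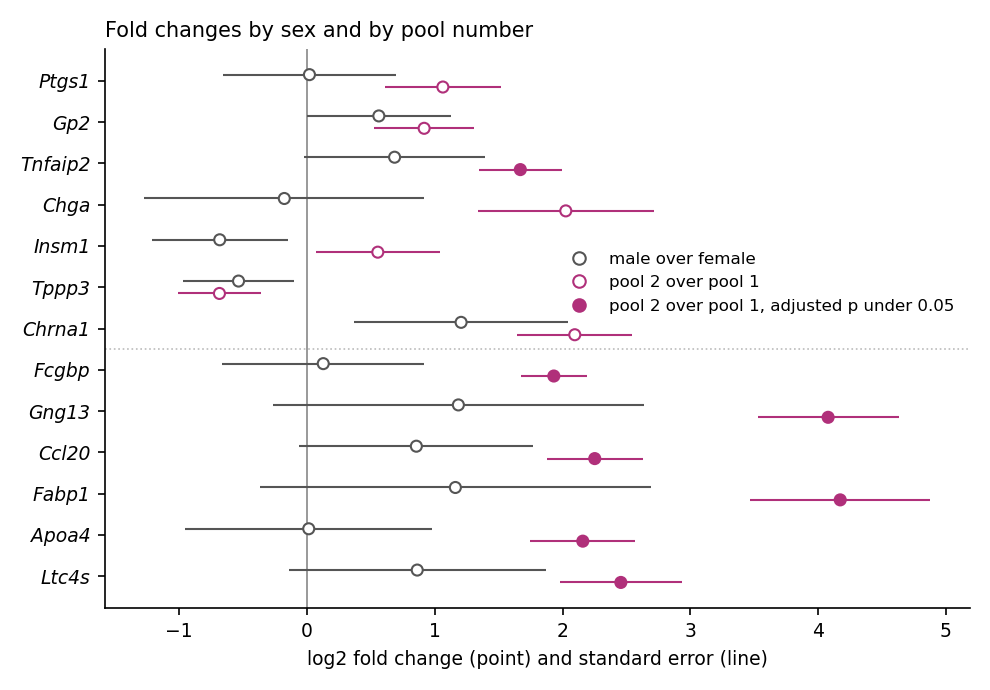
Log2 fold changes (points) and standard errors (lines) on the horizontal axis for the 7 tested markers, above the dotted line, and for 6 further lineage genes called by pool number, below it. Filled points, with an adjusted p under 0.05, occur only for pool number, and for Tnfaip2 alone among the 7 markers.

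Further lineage genes were set beside the markers in the same fit. Of 39 that passed the filter, 6 were higher in the second pools at the adjusted threshold and none lower, where 1.86% and 0.175% of all genes tested were. At an unadjusted p under 0.05, 19 were higher, against 14.4% of all genes tested, and 3 were lower, against 9.22% (Spib, Il17rb and Rfx3, named after their values were seen). Of the 39, 4 passed the filter through the second pools alone (Gng13, Fabp1, Cck and Rapsn), and without them 15 of 35 were higher at an unadjusted p under 0.05 and 4 of 35 at the adjusted threshold, against 13.2% and 1.57% of genes. The median log2 fold change of the 39 was 0.70, and that of the 35 was 0.59. The 6 came from the tuft, microfold and enterocyte and secretory lists, of which 13, 8 and 8 genes were tested. Of the neuroendocrine, ciliated, muscle and ionocyte lists only 2, 2, 5 and 1 were tested, and the difference between lineages was not tested.

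Of the tuft list, Gng13, the γ subunit that pairs with gustducin, had 5, 22, 8 and 69 reads, or 1.36, 10.9, 0.956 and 26.6 normalized CPM. Its log2 fold change was 4.08 with a standard error of 0.55 and an adjusted p of 0.0391 (edgeR). It passed the filter through its second pools alone, which fixed its direction, and 399 of its 773 exonic bases overlap Chtf18 on the opposite strand, so its reads are uncertain in origin. Ltc4s, which makes the leukotriene C4 of tuft cells and mast cells, had 29, 36, 34 and 113 reads, or 7.88, 17.8, 4.06 and 43.5 normalized CPM, and a log2 fold change of 2.46. Of its 736 exonic bases, 192 overlap Gm16641 on the opposite strand, so part of its reads is uncertain in origin. Both were higher in each second pool. So was Ptgs1, but in females by 0.28 on the log2 scale, which was within counting error. Gnat3, the partner of Gng13, had too few reads to test.

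Of the microfold list, the chemokine Ccl20 had 18, 39, 56 and 96 reads, or 4.89, 19.3, 6.69 and 37.0 normalized CPM, with a log2 fold change of 2.25. Of the gut list, Fcgbp rose by 1.93 on the log2 scale, from 12.0 and 10.3 normalized CPM in the first pools to 38.6 and 45.4 in the second. Fabp1, a fatty acid binding protein of enterocytes and liver, had 6, 16, 3 and 55 reads and a log2 fold change of 4.17. Apoa4, an apolipoprotein of the gut, had 8, 35, 38 and 39 reads, or 2.17, 17.3, 4.54 and 15.0 normalized CPM, and a log2 fold change of 2.16. The first and second pools did not overlap in Ccl20, Fcgbp and Apoa4, and for Fabp1 this was fixed by the filter, which it passed through its second pools alone. Of the 1815 exonic bases of Apoa4, 632 overlap Gm10680 on the opposite strand, and of the 10497 of Fcgbp, 727 overlap Gm10935, so part of their reads is uncertain in origin too.

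Without male pool 2, Gng13 and Fcgbp passed, and Ccl20, Fabp1, Apoa4 and Ltc4s had adjusted p of 0.0645, 0.105, 0.0544 and 0.108 (edgeR). Their log2 fold changes were then 1.69, 3.25, 2.25 and 1.65, so that of Apoa4 did not fall. Tff3, with the highest level in male pool 2, had an adjusted p of 0.0558 with all pools, and it passed with library size only, no filter, the 1 CPM filter, the exact test or sex as a second term.

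Genes of other cell types were compared by pool number as well. Of all genes tested, 31.2% were higher and 35.0% lower in the second pool of both sexes. Of the 10 dendritic cell and macrophage genes, 6 were higher and 2 lower in the second pool of both sexes, and Lyz2 had 1160, 2400, 841 and 3330 normalized CPM. None of the 10 was at 0. Batf3, a transcription factor of dendritic cells and the 1 gene of the list called by pool number, had 38.1, 114, 30.5 and 208 normalized CPM, with a log2 fold change of 2.24, a standard error of 0.33 and an adjusted p of 0.0391 (edgeR). It was named after its values were seen. All 8 B cell genes were lower in the second pool of both sexes, with Cd79a at 2430, 1540, 1860 and 1460. Of the 9 epithelial genes 7 were higher and 1 lower, and Aire, at 19.3, 31.7, 19.7 and 28.9, was higher in both second pools. None of the 7 B cell and 9 epithelial genes tested was called by edgeR. At an unadjusted p under 0.05, 3 B cell genes were lower and 3 epithelial genes higher, against 9.22% and 14.4% of all genes tested. By the same limit, 6 of the 10 dendritic cell and macrophage genes tested were higher and 1 was lower. Of the 6 mTEC genes tested, 3 were higher and 0 lower. The part of these shifts in the rise of Tnfaip2 and of the further lineage genes was not tested. Endothelial genes, led by Pecam1 and with Tie1 and Emcn at 0, summed to 35.9, 37.6, 35.4 and 25.8.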

How the data were processed

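RNA of sorted mTECs was made into libraries with the SMARTer Ultra Low kit and sequenced as 50-base reads. The authors removed low-quality reads with Trimmomatic, aligned to mm9 with TopHat2 and used HTSeq-count to count reads on genes, and the deposited values are these raw counts. Versions, gene annotation and strand setting are not given in the sources used here. Rows of unassigned reads, 66.9% to 70.2% of a pool's total, stayed out of library sizes and tests. Every pair of pools differed by more than sampling noise, with chi-square over its degrees of freedom at 10.1 or more. The study describes its pools as biological replicates, and what the pool numbers stand for is not stated.

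Tests were made with edgeR 4.0.16 in R 4.3.3 (TMM, filterByExpr with a minimum count of 10, quasi-likelihood F-test, two-sided, prior count of 0.125, standard error from the fold change and F), with sex, or pool number in its place, as the only term. The common biological coefficient of variation was 0.349, and the scripts were tested on simulated data. DESeq2 1.42.0, edgeR's exact test, upper-quartile and library size scaling, no filter, a filter of 1 CPM in at least 2 pools, a prior count of 2, blocks and each pool left out were alternatives. Exonic lengths and positions are from GENCODE on NCBIM37. Promoter windows are from RefSeq (GRCm38.p6), and 26 of 32 markers matched.

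The markers and all lists were chosen with earlier results of these data known. Named are all markers, the 3 further genes of each lineage with the highest normalized CPM, those past the adjusted threshold, and the most abundant gene and genes at 0 of the lists for other cells (B cell, thymocyte, dendritic cell and macrophage, fibroblast, smooth muscle and pericyte, endothelium, cortical epithelium, epithelium and mTEC). Some genes that this rule covers are left out of the text. Other genes were named after their values were seen. The mTEC list, led by H2-Ab1, summed to 45100, 43100, 34800 and 45800 normalized CPM.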

Additional observations from a re-analysis of the deposited data

How the results depend on the processing

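Between the sexes, no marker was called under any alternative but the omission of male pool 1 (0 to 2 markers when each pool was left out). Genes called numbered 0 with all pools, 5 under library size scaling, 26 unfiltered, 3 with DESeq2, 8 with the exact test and 0 to 646 with each pool left out (646 without male pool 1). With pool number as a replicate block they numbered 17, and no marker was called. What the pool numbers stand for is not given, so they were not taken as pairs. The change from pool 1 to pool 2 correlated between the sexes over genes (r = 0.527, a description over 10865 genes, not independent). By pool number, 1 marker was called, and 2 (Tnfaip2 and Chrna1) with library size only, no filter, the 1 CPM filter, DESeq2, the exact test or sex as a replicate block, and 1 to 2 with each pool left out. Genes called numbered 221, and 764, 1504, 651, 1138 and 807 with library size only, no filter, DESeq2, the exact test and the block, and 174 to 2620 with each pool left out. Further lineage genes called numbered 6, and 13 with no filter, 10 with the exact test, 10 with the block and 2 to 20 with each pool left out. Markers read in every pool numbered 7, and 19 at a limit of at least 1 read. The male over female log2 fold change of Ptgs1 changed sign with library size only (-0.18) and the block (-0.17). With each pool left out, it ranged from -0.99 to 0.72 for Ptgs1, -0.63 to 1.42 for Tnfaip2, -2.13 to 0.94 for Chga, -0.98 to 0.16 for Tppp3 and -0.72 to 2.03 for Chrna1, and the log2 fold change of pool 2 over pool 1 for Insm1 from -0.073 to 1.30. The causes were not tested. No other marker changed direction, and upper-quartile scaling and a prior count of 2 changed no call of a marker. Low counts of 24 markers limit any comparison of them.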
